A study of Mus musculus with 14 samples.

Results

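The PGC-1 coactivators and the regulators of mitochondrial biogenesis described here are 9 genes, out of 24444 genes in each of 2 deposited expression tables of mouse cortex. They were chosen by name, from their textbook roles, with earlier results of these data known. They are the 3 PGC-1 coactivators (Ppargc1a, Ppargc1b and Pprc1), 2 oestrogen-related receptors (Esrra and Esrrg), the nuclear respiratory factors Nrf1 and Gabpa, the mitochondrial DNA-packaging factor Tfam and the outer membrane channel Vdac1. All 9 were measured in every library, and all 9 passed the filter on low values in both tables.

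Polyadenylated RNA was sequenced from the cortex of 14 mice in 2 models of miR-29, a microRNA family that lowers transcripts carrying its site in their 3′ UTR. The miR29Nestin mice (n = 3, P40, meaning postnatal day 40) carried floxed alleles of both miR-29 clusters, miR-29ab1 and miR-29b2c, and the deletion was made with Nestin-Cre. They were compared with miR29WT mice (n = 3, P40), for which the labels do not say whether floxed alleles or the Cre transgene were present. Nestin-Cre acts in neural progenitors and so reaches neurons, astrocytes and oligodendrocytes, while microglia and most vascular cells have another origin and keep the floxed alleles. The Dnmt3a-mi5 mice (n = 4, 4.5 months) had an intact miR-29 family and a CRISPR/Cas9 knock-in in which the Dnmt3a 3′ UTR had 5 mutated sites for it, in every cell type. They were compared with Dnmt3a-WT mice (n = 4, 4.5 months). The first comparison asks how cortical transcripts respond to loss of the family, and the second how they respond when Dnmt3a, a DNA methyltransferase, is the sole target freed from it. Nothing in the labels says whether mice of a group were littermates. The models differed in age, RNA kit and library kit, so levels are compared only within a model.

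PGC-1 proteins do not bind DNA themselves. They are recruited by transcription factors such as the oestrogen-related receptors, NRF-1 (encoded by Nrf1) and GABP (whose DNA-binding subunit is encoded by Gabpa), and these factors bind promoters of nuclear genes for respiration and for mitochondrial DNA upkeep, Tfam among them. Tfam protein enters mitochondria, where it coats the genome and starts its transcription. In the cortex Ppargc1a is enriched in fast-spiking parvalbumin interneurons, where Pvalb, Syt2, Nefh and Cplx1 depend on it. Ppargc1a and Vdac1 have both been reported elsewhere as miR-29 targets.

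The mature miR-29 sequences are shown because their shared seed decides which of the 9 genes could be recognised. They come from RefSeq (GRCm38.p6), 5′ to 3′, with bases 2 to 8, the seed, in capitals. The seed was the same in all 3 members of the family.
miR-29a-3p: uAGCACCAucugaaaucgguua
miR-29b-3p: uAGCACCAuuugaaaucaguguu
miR-29c-3p: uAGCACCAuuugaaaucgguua
In the longest annotated 3′ UTR (GENCODE M21, GRCm38) of the 9 genes, a match to bases 2 to 8 (TGGTGCT) was found in Ppargc1a and Gabpa, with 1 match each. These are 2 of 9 genes (22.2%), beside 2678 of 19866 genes with an annotated 3′ UTR (13.5%). The windows around both matches are printed below in the sense of the transcript, with the match in capitals.
Ppargc1a, chr5:51454853-51454882, minus strand: ggtacccgaacTGGTGCTttagaaatgcgg
Gabpa, chr16:84863145-84863174, plus strand: ggtctgagcgtTGGTGCTggcattggaagg
The Ppargc1a match began at base 3309 of a 3′ UTR of 3930 bases, and the Gabpa match at base 2553 of 3176. Each of these genes also has an annotated transcript whose shorter 3′ UTR lacks the match. Esrrg, Nrf1 and Tfam held a shorter match, to bases 2 to 7 only. None of these exact matches was found in the 3′ UTRs of Ppargc1b, Pprc1, Esrra or Vdac1, the last of which has 874 bases.

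**Figure D1:**
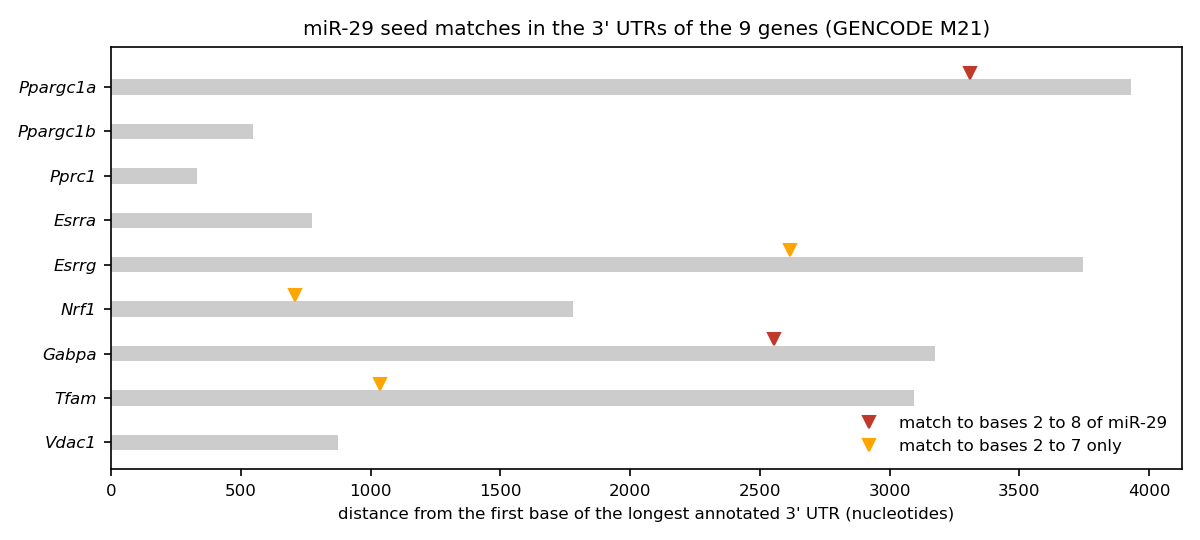
Each grey bar is the longest annotated 3′ UTR of a gene, drawn to scale in nucleotides from its first base, and triangles mark matches to the miR-29 seed. The matches to bases 2 to 8 lie in Ppargc1a (base 3309) and Gabpa (base 2553), and 4 of the genes hold none.

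The miR29 libraries held 9.18 to 14.4 M reads in genes, recovered from the deposited values, and the depth of the Dnmt3a libraries is unknown. Levels below are normalised counts, which are read counts divided by each library's size factor. Dnmt3a itself checked the labels. It stood at 5529 ± 300 (SD, n = 3) normalised counts in miR29Nestin mice and 1662 ± 59.3 (n = 3) in miR29WT mice, and at 2080 ± 151 (n = 4) in Dnmt3a-mi5 mice and 1145 ± 84.6 (n = 4) in Dnmt3a-WT mice, with separate ranges in both models. Differences were tested with limma on the deposited log2 scale, with Benjamini-Hochberg adjustment over all genes tested, and a gene was called at an adjusted p under 0.05. Log2 differences on this variance-stabilised scale understate the change of low genes. The labels do not give separate litters or days, so p values measure the spread between these samples.

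None of the 9 genes was called in miR29Nestin cortex (limma), where 19.1% of 12014 tested genes were called. A block for the replicate number treats same-numbered miR29 libraries as pairs. The labels name no such pairing and it is uncertain. By Y-linked genes, the pair of replicate 3 joins a male wild type to a mutant that was not male. With it, Esrra and Nrf1 were called (2 of 9), beside 25.3% of all tested genes. At an unadjusted p under 0.05 there were 2 of 9, Esrra (higher) and Nrf1 (lower), against 33.0% of all tested genes. Within the 3 pairs of same-numbered libraries, Esrra, Esrrg and Vdac1 were higher in the mutant in all 3, and Ppargc1b, Pprc1 and Nrf1 lower in all 3. The share of all tested genes with the same direction in all 3 pairs was not counted, so these directions are a description only. With the block, Ppargc1b, Pprc1, Esrrg and Vdac1 still missed the threshold (adjusted p of 0.118 for Esrrg to 0.466 for Ppargc1b, limma). None was called in Dnmt3a-mi5 cortex either, where 13 of 10670 genes (0.122%) were called. There, 2 of 9 had an unadjusted p under 0.05, Esrra and Pprc1 (both higher), against 14.7% of all tested genes. Esrra was the sole member of the 9 whose mutant libraries all lay above all wild-type libraries in both models. Of 10610 genes tested in both tables, 156 (1.47%) had that pattern.

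**Figure D2:**
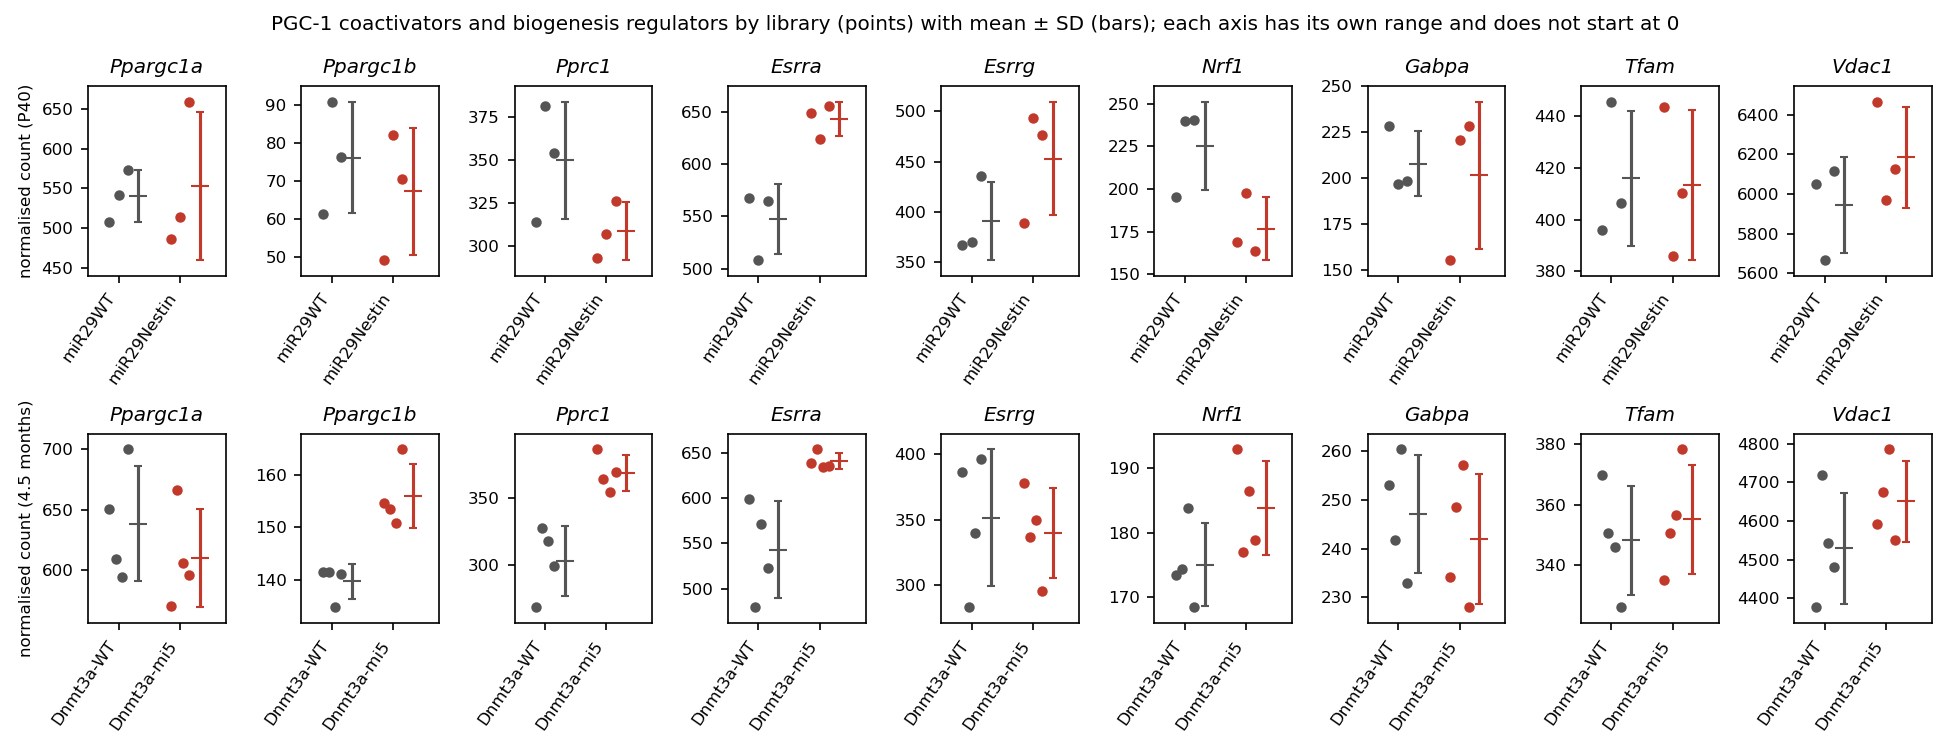
Normalised counts of the 9 genes in each library (points), with mean ± SD beside them, for the miR29 mice in the upper row and the Dnmt3a mice in the lower row; each vertical axis has its own range and does not start at 0. Esrra has separate groups in both rows, and Ppargc1b and Pprc1 have separate groups in the lower row.

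Among the coactivators, Ppargc1a, which encodes PGC-1α, the family's cold- and exercise-responsive member, had 508, 541 and 573 normalised counts in miR29WT libraries. In miR29Nestin libraries it had 486, 514 and 659. The mutant group held both the highest and the lowest library, so the groups overlapped. The log2 difference was 0.02 (95% interval -0.17 to 0.21, adjusted p = 0.909, limma), and it turned negative without miR29Nestin replicate 3 (-0.09) or without miR29WT replicate 1 (-0.02). For the Dnmt3a mice, its 4 wild-type libraries had 650.5, 609, 595 and 699 normalised counts and its 4 mutant libraries 571, 666, 606.5 and 597. The groups overlapped again, with a log2 difference of -0.04 (95% interval -0.15 to 0.06, adjusted p = 0.714, limma). Ppargc1a lies on chromosome 5, from 51454250 to 51567726 (GRCm38, minus strand), and was the only coactivator with a match to bases 2 to 8.

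Ppargc1b encodes PGC-1β, the relative that supports basal mitochondrial content. It was the lowest of the 9 genes per length. Its levels were 61.4, 90.7 and 76.5 normalised counts in miR29WT libraries and 49.4, 82.2 and 70.7 in miR29Nestin libraries. These overlapped, and the log2 difference was -0.07 (95% interval -0.27 to 0.12, adjusted p = 0.610, limma). Dnmt3a-WT libraries had 141.5, 141.5, 135 and 141 normalised counts and Dnmt3a-mi5 libraries 155, 153, 151 and 165. Every mutant library was above every wild-type library, a pattern that 5.33% of tested genes showed in this direction. The difference was 0.06 on the log2 scale (95% interval -0.01 to 0.13, adjusted p = 0.381, limma), and the ratio of mean counts was 1.12. An exact two-sided permutation test gave p = 0.0286, the smallest that 4 against 4 allows, and 0.0556 when the assignments were balanced over the 2 sets of libraries in that table, also the smallest possible.

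Pprc1 encodes PRC, a coactivator induced by growth signals, and lies on chromosome 19 (46044886 to 46072915, plus strand). In miR29WT libraries it had 314, 382 and 354 normalised counts and in miR29Nestin libraries 293, 307 and 326. The ranges overlapped through miR29WT replicate 1, and the log2 difference was -0.12 (95% interval -0.27 to 0.03, adjusted p = 0.243, limma). The Dnmt3a model had the opposite sign. Wild-type libraries had 269, 327, 318 and 299 normalised counts there, and mutant libraries 385, 363.5, 354 and 369. All 4 mutant libraries lay above all 4 wild-type libraries, by a ratio of means of 1.21. The log2 difference was 0.15 (95% interval 0.06 to 0.24), but it missed the threshold after adjustment over all genes (adjusted p = 0.161, limma). The exact permutation p was 0.0286, and 0.0556 with balanced assignments, both the smallest possible. Whether the coactivators differ between the models was not tested, since the tables were normalised separately.

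Esrra encodes ERRα, an orphan nuclear receptor that partners PGC-1 at genes of respiration and is itself a PGC-1 target. It lies on chromosome 19 (6910977 to 6921813, minus strand), and its 3′ UTR holds no match to the seed. Its levels were 568, 508 and 565 normalised counts in miR29WT libraries and 649, 624 and 656 in miR29Nestin libraries. The groups did not overlap, and the mutant mean was 1.18-fold the wild-type mean. The log2 difference was 0.18 (SE 0.06, 95% interval 0.05 to 0.31), and its adjusted p of 0.05055 (limma) stood just outside the threshold. Non-overlapping groups in this direction were common, at 18.6% of tested genes. The exact permutation p was 0.1, the smallest that 3 against 3 allows. With the replicate block Esrra passed the test (adjusted p = 0.0322, limma).

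In the Dnmt3a model Esrra had 599, 479, 572 and 523 normalised counts in wild-type libraries. Mutant libraries had 639, 653, 634 and 636. The mutant libraries lay close together above a wider wild-type group. The ratio of means was again 1.18, and the log2 difference was 0.16 (95% interval 0.06 to 0.26, adjusted p = 0.178, limma). The exact permutation p was 0.0286, and 0.0556 with balanced assignments. Dnmt3a-WT library 2 was the lowest for Esrra, for Pvalb (298 normalised counts, others 505 to 642) and for the myelin gene Mbp (17180, others 23400 to 28080). Without that library the Esrra difference was 0.11 and its adjusted p 0.164 (limma).

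Esrrg encodes ERRγ, a receptor of the same family found in oxidative tissues such as heart and brain. It had 367, 370.4 and 435 normalised counts in miR29WT libraries and 389, 493 and 477 in miR29Nestin libraries. Mutant replicates 2 and 3 exceeded all wild-type libraries, and mutant replicate 1 did not. The log2 difference was 0.15 (95% interval -0.02 to 0.33, adjusted p = 0.217, limma). Dnmt3a-WT libraries ranged from 283 to 396.5 and Dnmt3a-mi5 libraries from 296 to 378 normalised counts, a log2 difference of -0.02 (adjusted p = 0.903, limma).

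The receptor Esrrb, which is no member of the 9 but belongs to the same family, did pass the test. Its counts were 43.9, 33.7 and 29.9 in miR29WT libraries and 71.0, 79.1 and 69.0 in miR29Nestin libraries. That is a 2.04-fold ratio of means and a log2 difference of 0.36 (adjusted p = 0.00523, limma). The call was kept without each library in turn and lost with no filter on low values (adjusted p = 0.0509). In the Dnmt3a table Esrrb fell below the filter and was not tested, with 25.7, 25.2, 31.4 and 23.6 approximate counts in wild-type and 35.1, 44.3, 36.5 and 37.9 in mutant libraries.

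Nrf1, the gene of the factor NRF-1 that binds GC-rich promoters of nuclear mitochondrial genes, had the opposite sign to Esrra in the miR29 model. Its levels were 195, 239.7 and 240.5 normalised counts in miR29WT libraries and 169, 198 and 164 in miR29Nestin libraries. The ranges overlapped through miR29WT replicate 1 and miR29Nestin replicate 2. The ratio of means was 0.785 and the log2 difference -0.20 (95% interval -0.37 to -0.04, adjusted p = 0.0784, limma). Nrf1 passed with the replicate block (adjusted p = 0.0480) and without miR29WT replicate 1 (adjusted p = 0.0398). Across the Dnmt3a mice it had 173, 174, 184 and 168 normalised counts in wild-type libraries and 193, 177, 186.5 and 179 in mutant libraries, which overlapped. The log2 difference there was 0.03 (95% interval -0.04 to 0.10, adjusted p = 0.708, limma). Nrf1 lies on chromosome 6 (30047988 to 30153458, plus strand) and is a different gene from Nfe2l1, which has also been called NRF1.

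Gabpa carries the other match to bases 2 to 8. It had 228, 197 and 199 normalised counts in miR29WT libraries and 156, 221 and 228 in miR29Nestin libraries. The mutant group spanned the wild-type group, with a log2 difference of -0.03 (95% interval -0.23 to 0.16, adjusted p = 0.836, limma). The Dnmt3a model gave 233 to 260.4 normalised counts in wild-type and 228 to 257 in mutant libraries (log2 difference -0.01, adjusted p = 0.896, limma). GABP works as a complex of Gabpa with a partner subunit from Gabpb1 or Gabpb2. These were looked up for that role, outside the rule for named genes. Gabpb1 had 245 ± 4.67 (SD, n = 3) and 254 ± 27.3 normalised counts in miR29WT and miR29Nestin mice (log2 difference 0.03, adjusted p = 0.802, limma). Gabpb2 has 4 matches to bases 2 to 8 and stood at 315 ± 27.8 and 303 ± 22.8 (log2 difference -0.04, adjusted p = 0.760, limma).

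**Figure D3:**
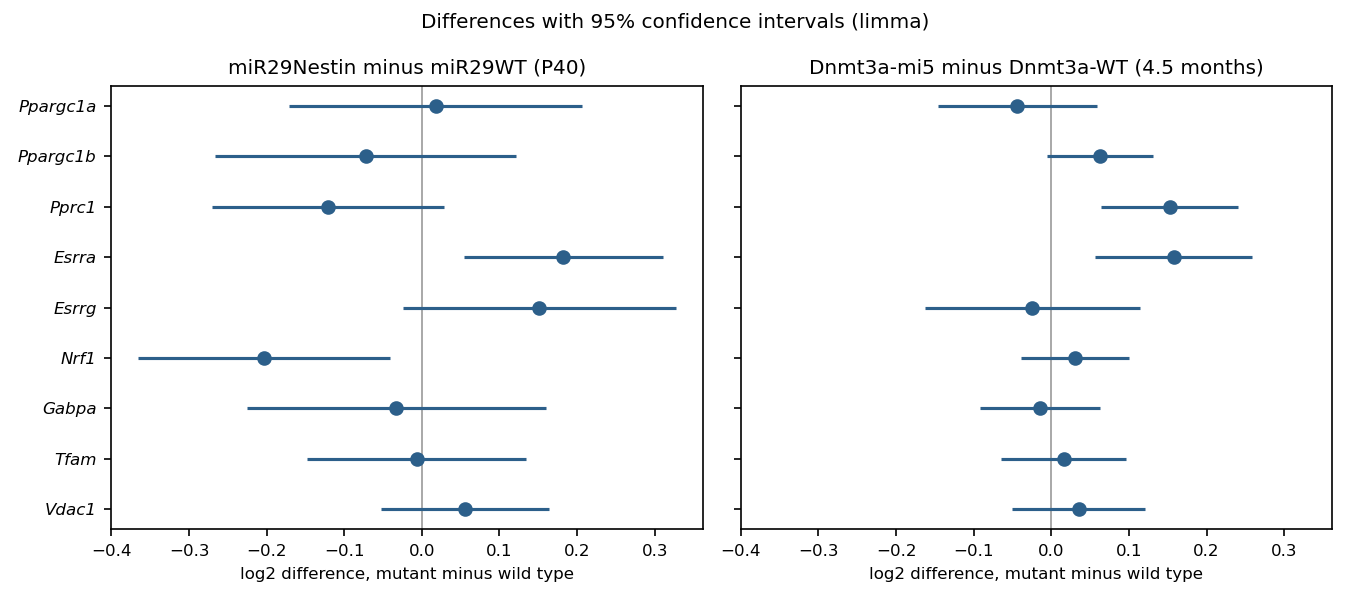
Log2 differences (mutant minus wild type, horizontal axis) of the 9 genes with 95% confidence intervals from limma, for the miR29 model on the left and the Dnmt3a model on the right. In both panels the interval of Esrra lies above 0; that of Nrf1 lies below 0 on the left and that of Pprc1 above 0 on the right.

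Tfam, on chromosome 10 (71225464 to 71238280, minus strand), stayed within the spread of its libraries. It had 396, 446 and 406 normalised counts in miR29WT libraries and 444, 386 and 410.5 in miR29Nestin libraries. The log2 difference was -0.01 (95% interval -0.15 to 0.13, adjusted p = 0.956, limma). Dnmt3a-WT libraries had 326 to 370 and Dnmt3a-mi5 libraries 335 to 378 normalised counts, a log2 difference of 0.02 (95% interval -0.06 to 0.10, adjusted p = 0.891, limma). Both intervals leave out changes above 0.15 in either direction on this scale. The factors that work beside Tfam on mitochondrial DNA are a methyltransferase-like factor encoded by Tfb2m and the RNA polymerase Polrmt. Tfb2m had 113 ± 8.62 (SD, n = 3) normalised counts in miR29WT and 84.8 ± 4.36 in miR29Nestin mice (log2 difference -0.18, adjusted p = 0.0667, limma). Polrmt had 363 ± 19.3 and 411 ± 9.24 (log2 difference 0.13, adjusted p = 0.152, limma). Their groups did not overlap in either case, and neither passed the test as reported. Tfb2m passed when no mean-variance trend was fitted (adjusted p = 0.0466, limma). Of 12014 tested genes, 2251 had separate groups in the direction of Tfb2m and 2232 in that of Polrmt. Tfb1m, a paralogue of Tfb2m, had 76.4 ± 9.18 and 70.8 ± 11.8 (log2 difference -0.05, adjusted p = 0.712, limma). The 3 genes were picked for their role, outside the rule for named genes.

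Vdac1 encodes the main pore for metabolites in the outer mitochondrial membrane and was the most abundant of the 9. Its levels were 6052, 5667 and 6115 normalised counts in miR29WT libraries and 6466, 5967 and 6126 in miR29Nestin libraries. The groups overlapped, with a log2 difference of 0.06 (95% interval -0.05 to 0.16, adjusted p = 0.471, limma). In the Dnmt3a model it had 4376 to 4718 normalised counts in wild-type and 4550 to 4785 in mutant libraries (log2 difference 0.04, 95% interval -0.05 to 0.12, adjusted p = 0.724, limma). Its paralogues Vdac2 and Vdac3, looked up outside the rule, also missed the threshold in the miR29 model. Vdac2 had 2161 ± 135 (SD, n = 3) normalised counts in miR29WT and 2417 ± 117 in miR29Nestin mice (log2 difference 0.15, adjusted p = 0.0951, limma; 0.0303 with the replicate block). Vdac3 had 862 ± 47.1 and 899 ± 88.1 (log2 difference 0.05, adjusted p = 0.669, limma). Reads of processed pseudogenes of these genes may be shared, so small differences between paralogues are uncertain.

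The 9 genes span a wide range of abundance. Per kilobase of the longest annotated coding transcript, miR29WT cortex held 2940 ± 120 (SD, n = 3) normalised counts of Vdac1 and 244 ± 14.9 of Esrra. Tfam followed with 99.8 ± 6.27, then Ppargc1a with 83.6 ± 5.03, Esrrg with 72.8 ± 7.14, Pprc1 with 66.7 ± 6.54 and Nrf1 with 62.8 ± 7.20. Gabpa stood at 41.7 ± 3.53 and Ppargc1b at 20.8 ± 4.00. The ranges of Ppargc1a and Esrrg overlapped, as did those of Esrrg and Pprc1 and those of Pprc1 and Nrf1, while the other neighbours in this order were apart. In Dnmt3a-WT cortex (n = 4) Vdac1 (2240 ± 70.8 per kilobase) and Esrra (242 ± 23.6) were again first, and Ppargc1b (38.2 ± 0.907) was again last. Ppargc1a (98.8 ± 7.26) stood ahead of Tfam (83.6 ± 4.32) there, with ranges apart. Gabpa (49.5 ± 2.43) and Nrf1 (48.8 ± 1.79) overlapped. Among coactivators the order per length was Ppargc1a, Pprc1, Ppargc1b in both models.

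Promoters were searched because the 3 kinds of factor among the 9 genes are known to bind short motifs at mitochondrial genes. RefSeq (GRCm38.p6) windows from 250 bases before to 50 after the start were available for 8 of the 9 genes, 13 windows in all, and both strands were read. The GABP (ETS) motif CCGGAAG was found in 3 of 13 windows, those of Gabpa, Tfam and Vdac1, and in 8.86% of 32851 promoter windows. The windows of the 2 downstream genes are shown, since Tfam is the textbook link between these factors and mitochondrial DNA, with the motif in capitals.
Tfam, chr10:71238073-71238102, minus strand: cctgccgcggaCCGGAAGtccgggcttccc
Vdac1, chr11:52360735-52360764, plus strand: cgctctgtgtgCCGGAAGctcccctccccc
The motif lies 47 bases before a RefSeq start of Tfam and 105 before a RefSeq start of Vdac1. The GENCODE start of Tfam lies further upstream, at 71238280, so the Tfam window is inside the GENCODE span of the gene. The motif AAGGTCA of the oestrogen-related receptors was found in 1 window, of Vdac1 (4.72% of all windows). That window belongs to another RefSeq start of Vdac1 than the ETS match. The match lies within chr11:52361480-52361509, downstream of the GENCODE start of the gene at 52360860. The NRF-1 motif GCGCANGCGC was found in none of the 13 (4.6% of all windows). These are matches of letters and not measured binding. The genes with an ETS match had adjusted p of 0.471 to 0.956 in the miR29 model (limma). None of the 9 genes was called in either model, with or without a match, so the calls cannot set these genes apart.

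Around the 9 genes, 6 lists of the pathway were counted, with 110 of their genes tested in the miR29 model and 101 in the Dnmt3a model. In miR29Nestin cortex 13 of 110 were higher and 3 lower (limma), beside 9.02% higher and 10.0% lower of all tested genes, and their median log2 difference was 0.05 against -0.01 for all tested genes. With the replicate block 24 of the 110 (21.8%) were called, beside 25.3% of all tested genes under that fit. In Dnmt3a-mi5 cortex none of the 101 was called (limma), with 6 at an unadjusted p under 0.05, beside 14.7% of all tested genes. The lists were chosen with earlier results of these data known, so these counts are descriptions.

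**Figure D4:**
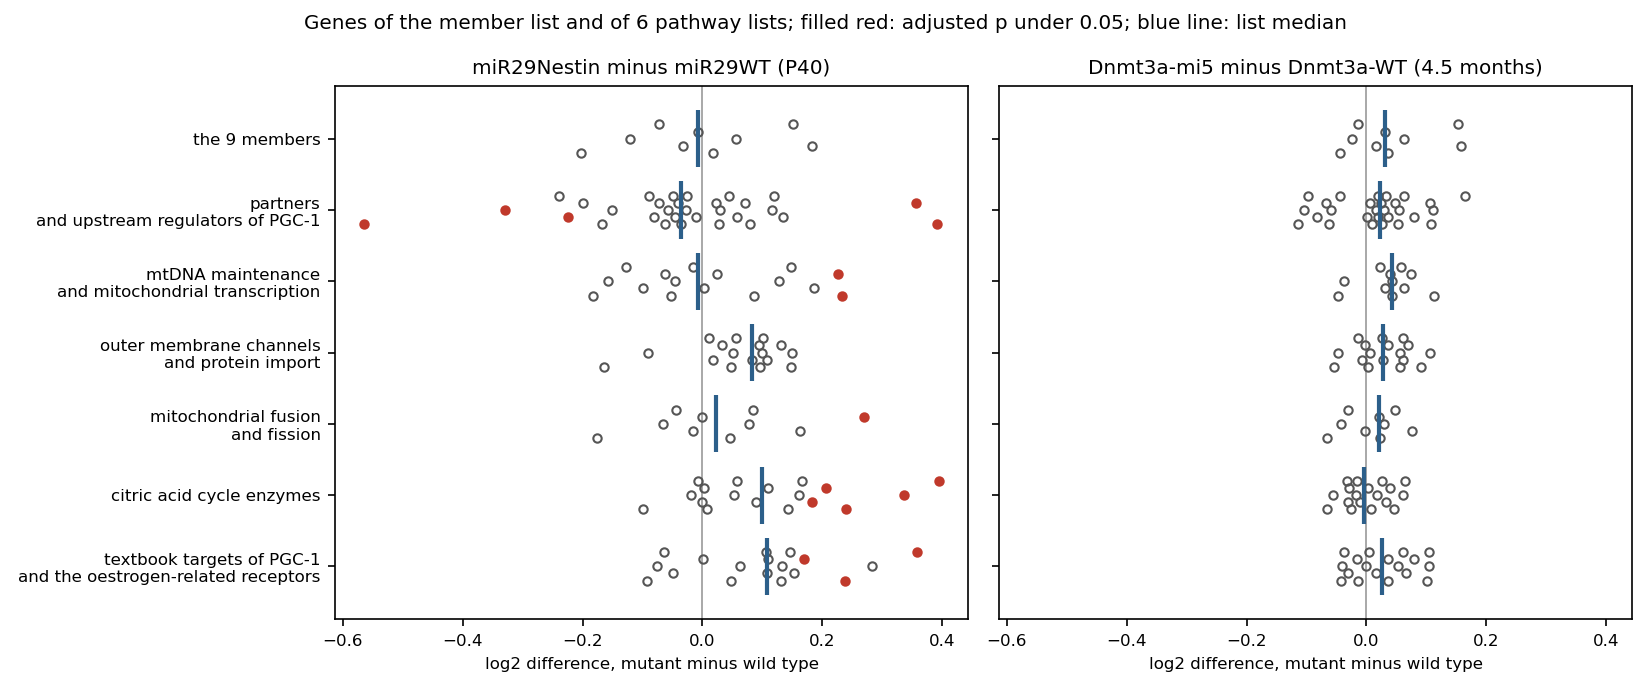
Log2 differences (mutant minus wild type) of the 9 genes and of the genes of 6 pathway lists, 1 point per tested gene, with called genes filled in red and the list median as a blue line; the miR29 model is on the left and the Dnmt3a model on the right. Called genes are seen only on the left, where 5 citric acid cycle enzymes and 3 textbook targets lie to the right of 0.

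Partners and upstream regulators of PGC-1 split in direction, with 2 of 31 higher and 3 lower in miR29Nestin cortex (median -0.04). Among all tested genes 9.02% were higher and 10.0% lower. Prkaa2, the catalytic α2 subunit of the energy sensor AMPK, which activates PGC-1α, fell from 599, 634 and 690.3 normalised counts in miR29WT libraries to 344, 384 and 412.5 in miR29Nestin libraries. The ratio of means was 0.593 and the log2 difference -0.56 (adjusted p = 3.16e-04, limma). Its paralogue Prkaa1, looked up outside the rule, had 324 ± 14.2 and 317 ± 53.2 normalised counts (log2 difference -0.03, adjusted p = 0.861, limma). Ppard, a fatty-acid-sensing nuclear receptor that PGC-1α coactivates, rose from 411.5, 422 and 352 to 600, 589 and 517 normalised counts, a 1.44-fold ratio (log2 difference 0.39, adjusted p = 0.00368, limma). Its 3′ UTR holds 1 match to bases 2 to 8. The nuclear corepressor Ncor1 fell to 0.785 of its wild-type mean (log2 difference -0.33, adjusted p = 0.00737, limma), as did Atf2, a CREB-family factor, to 0.834 (log2 difference -0.22, adjusted p = 0.0308, limma).

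Enzymes of the citric acid cycle, the mitochondrial pathway that feeds electrons to respiration, held the most higher calls of the 6 lists. Of 18 tested, 5 were higher and none lower in miR29Nestin cortex, beside 9.02% higher and 10.0% lower of all tested genes. The median log2 difference was 0.10. Idh2, an NADP-dependent isocitrate dehydrogenase, rose from 366, 423 and 399 to 540.1, 578 and 598 normalised counts (1.45-fold, adjusted p = 0.00169, limma). Ogdh, the 2-oxoglutarate dehydrogenase subunit, rose 1.27-fold from 4034 ± 199 (SD, n = 3) to 5137 ± 46.0 (adjusted p = 8.75e-04, limma). Suclg1 and Sdhc, subunits of succinyl-CoA ligase and of succinate dehydrogenase, rose by 0.21 and 0.18 on the log2 scale (adjusted p = 0.0287 and 0.0321, limma). In Dnmt3a-mi5 cortex 9 of 18 differences were positive, with a median of 0.00.

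Of 18 tested textbook targets of PGC-1 and the oestrogen-related receptors, 3 were higher and none lower in miR29Nestin cortex (median 0.11). The shares over all tested genes were 9.02% higher and 10.0% lower. Ldhb, the lactate dehydrogenase subunit that favours lactate use, rose from 6150, 5788 and 5852 to 8024, 7378 and 7574 normalised counts (1.29-fold, adjusted p = 5.63e-04, limma). The respiratory chain subunits Uqcrc1 (complex III) and Atp5b (ATP synthase) rose 1.19-fold and 1.13-fold (adjusted p = 0.0144 and 0.0407, limma). Cycs, which encodes cytochrome c and is the classic NRF-1 target, was looked up outside the rule. It had 668 ± 27.6 (SD, n = 3) normalised counts in miR29WT and 699 ± 86.0 in miR29Nestin mice (log2 difference 0.05, adjusted p = 0.699, limma). None of the 18 was called in Dnmt3a-mi5 cortex.

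For upkeep and expression of mitochondrial DNA, 2 of 16 tested genes were higher and none lower in miR29Nestin cortex (median -0.01). The shares over all tested genes, 9.02% higher and 10.0% lower, stand beside this and the following counts. Lrpprc, which stabilises mitochondrial messenger RNA, rose from 709, 719 and 709.7 to 911, 838 and 855 normalised counts (1.22-fold, adjusted p = 0.0123, limma). The matrix protease Lonp1, which degrades Tfam, rose 1.21-fold (adjusted p = 0.0407, limma). Of 10 genes of mitochondrial fusion and fission, the outer membrane fusion GTPase Mfn1 was higher, 1.25-fold (adjusted p = 0.0407, limma), and none was lower. None of 17 outer membrane and import genes was called (limma), and 15 of the 17 differences were positive (median 0.08). An unadjusted p under 0.05 was seen for 3 of them, beside 33.0% of all tested genes.

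Of the 16 calls, 9 were kept when each library was left out in turn, among them Prkaa2, Ppard, Esrrb, Ncor1, Lrpprc, Ogdh, Idh2 and Ldhb. The other 7 (Lonp1, Mfn1, Suclg1, Sdhc, Uqcrc1, Atp5b and Atf2) were lost without miR29WT replicate 2, the shallowest library, with adjusted p of 0.0703 for Uqcrc1 to 0.127 for Atf2 (limma), and all of them but Uqcrc1 were also lost without miR29WT replicate 3 and without miR29Nestin replicate 2. Leaving out miR29Nestin replicate 1 ended the calls of Lonp1, Suclg1, Sdhc, Atp5b and Atf2, leaving out miR29WT replicate 1 those of Lonp1, Mfn1, Sdhc and Atp5b, and leaving out miR29Nestin replicate 3 that of Mfn1. Sdhc and Atf2 were named after their values were seen, to complete the counts of called genes. With no filter on low values the calls of Ppard (adjusted p = 0.0709), Ncor1 (0.119), Esrrb, Lonp1, Mfn1, Suclg1, Uqcrc1, Atp5b and Atf2 were lost (limma).

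Some genes of the 6 lists carry a match to bases 2 to 8 themselves. In miR29Nestin cortex 2 of 16 such genes were higher (Ppard and Sdhc) and none lower, with a median log2 difference of 0.01, while 11 of 94 without a match were higher and 3 lower, with a median of 0.05. Among all tested genes 17.2% of 1925 with a match were higher against 7.4% of 9636 without. Yy1, a factor that joins PGC-1α at mitochondrial promoters and has 3 matches, stood at 334 ± 17.6 (SD, n = 3) and 310.3 ± 21.4 normalised counts in miR29WT and miR29Nestin mice (log2 difference -0.07, adjusted p = 0.460, limma); it was looked up outside the rule.

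In bulk cortex, more cells of a type and more RNA per cell cannot be told apart, and cell markers moved with the miR29 genotype. Of 12 markers of parvalbumin interneurons, the cells richest in Ppargc1a, 4 were higher and 3 lower in miR29Nestin cortex (limma). Among all tested genes 9.02% were higher and 10.0% lower. The log2 differences of the 12 ran from -0.386 to 0.783. The rule named markers by smallest p, and the 3 lower ones were not among them. Pvalb rose from 816, 671 and 756 to 1470.0, 1331 and 1433 normalised counts (1.89-fold, log2 difference 0.78, adjusted p = 4.29e-05, limma) and the neurofilament gene Nefh 1.45-fold (adjusted p = 0.00290, limma), while Ppargc1a differed by 0.02. Syt2, a presynaptic calcium sensor, had 429 ± 54.3 (SD, n = 3) and 544 ± 72.0 normalised counts (adjusted p = 0.0658, limma; 0.00719 with the replicate block). The summed level of the 12 ranged from 24610 to 26120 in miR29WT and from 28920 to 30690 in miR29Nestin libraries, with no marker at 0.

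Of 8 markers of excitatory neurons, 5 were called lower in the same libraries and none higher. The shares over all tested genes, 9.02% higher and 10.0% lower, stand beside this and the following counts. Their sum ranged from 71730 to 82580 in miR29WT and from 62870 to 66910 in miR29Nestin libraries. The glutamate transporter gene Slc17a7 fell to 0.827 of its wild-type mean (adjusted p = 0.00294, limma). Astrocyte markers were higher in 3 of 8 cases and lower in 1, led by Gjb6 (1.73-fold) and Gfap (1.50-fold), with sums of 14220 to 14910 and 15700 to 16270. Oligodendrocyte markers were called higher in 2 of 8 cases (Mobp 1.27-fold, Mbp 1.16-fold), but 4 of the 8 differences were negative and the median was 0.02 (sums 96440 to 107200 and 104800 to 116900). Markers of their precursors were higher in 2 of 6 cases (Pdgfra 1.30-fold, Olig1 1.24-fold), with all 6 differences positive (sums 3830 to 4270 and 4521 to 4936). Those of endothelium and pericytes were higher in 2 of 8 cases (Vwf 1.70-fold, Pdgfrb 1.31-fold), with 5 differences positive and 3 negative (sums 2153 to 2344 and 2318 to 2875). The call of Mbp was lost without miR29WT replicate 2, that of Pdgfrb without miR29Nestin replicate 2 or miR29WT replicate 1, and that of Olig1 without any of miR29Nestin replicates 1 and 2 and miR29WT replicates 2 and 3. With no filter on low values the calls of Nefh, Slc17a7, Mobp, Mbp, Pdgfra, Olig1, Vwf and Pdgfrb were lost, with adjusted p of 0.0584 for Pdgfra to 0.964 for Mbp (limma). None of 8 microglial markers (sums 4868 to 5219 and 4708 to 5142) or 8 markers of striatal projection neurons (sums 7697 to 13030 and 5841 to 13670) was called. The part of these markers in the differences of the 9 genes and of the pathway lists was not tested.

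Of the same marker lists in the Dnmt3a model, only the microglial receptor gene Cx3cr1 was called there, lower at 487 ± 12.0 (SD, n = 4) against 629 ± 22.2 (adjusted p = 0.0310, limma), and 7 of the 8 leave-outs ended that call, all but Dnmt3a-WT library 2. With no filter on low values it was lost as well (adjusted p = 0.139, limma). All 8 markers of striatal projection neurons had positive differences (median 0.34), with summed levels of 5320 to 9221 in Dnmt3a-WT and 6089 to 13330 in Dnmt3a-mi5 libraries. For endothelium and pericytes 7 of 7 tested differences were positive, 3 of them at an unadjusted p under 0.05 (limma), beside 14.7% of all tested genes. The sums of these markers did not overlap, at 1049 to 1217 in Dnmt3a-WT and 1246 to 1429 in Dnmt3a-mi5 libraries. The sums of excitatory neurons were lower in the mutants and narrowly missed overlapping (63960 to 68000 and 57870 to 63930), in counts that are approximate for this model. Of these 8 markers 7 differences were negative and 1 positive. An unadjusted p under 0.05 was seen for 2 of them (limma), beside 14.7% of all tested genes. Those sums that overlapped were of parvalbumin interneurons (16220 to 19540 and 18230 to 20470). Pvalb itself had 487.5 ± 142 and 570.1 ± 49.4 normalised counts (adjusted p = 0.551, limma). The labelled tissue was checked with Slc17a7, which stood at 15440 to 20080 normalised counts in all 14 libraries. Of 6 liver markers, Alb and Fgb were at 0 in every miR29 library and Serpina1a and Fgb in every Dnmt3a library. These were named because they were at 0, so they do not check the tissue. The summed level of the 6 liver markers, which include the choroid plexus gene Ttr, ranged from 25.3 to 475 in miR29 libraries and from 73.6 to 12610 in Dnmt3a libraries. The part of these markers in the levels of Esrra and Pprc1 was not tested.

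The pattern over all 14 libraries, each taken as its deviation from the mean of its own table, was compared with that of 10609 other genes. The genes closest to Ppargc1a were Dopey1 (Pearson r = 0.895), Zfp763 (0.859), Vrk1 (0.859), Map9 (0.854) and Cep295 (0.836). Those closest to Vdac1 were Cryz (0.890), Ndufb8 (0.858), Ppp1r3c (0.856), Saal1 (0.839) and Dhx8 (0.837). None of the other 8 members was among either set of 5. These are the highest of many correlations over few libraries, given as a description of likeness.

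**Figure D5:**
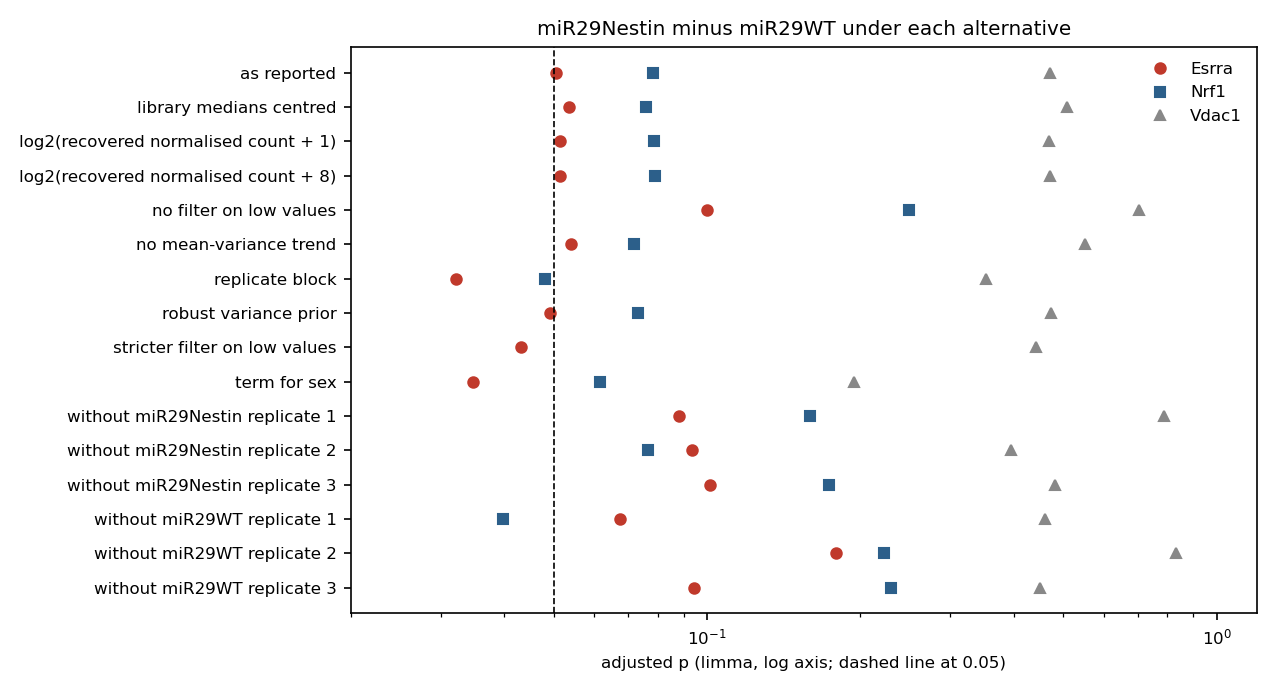
Adjusted p (limma, horizontal log axis) of Esrra, Nrf1 and Vdac1 in the miR29 model under the reported fit and each alternative, with the 0.05 threshold as a dashed line. Esrra lies between 0.0322 and 0.179 and passes in 4 alternatives, Nrf1 between 0.0398 and 0.249 and passes in 2, and Vdac1 stays above 0.19. Nrf1 has no point under the stricter filter, where it was not tested.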

How the data were processed

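For each model the authors deposited 1 table of log2 values that DESeq2 had variance-stabilised, per the names of the tables. Besides DESeq2, the tools cutadapt, Salmon and STAR (no versions) and the builds hg19 and mm9 are given in the submitters' processing notes, while annotation here was GENCODE M21 and RefSeq on GRCm38, matched by symbol. Libraries were stranded and sequenced paired-end for 50 cycles, per the labels' protocols. Normalised counts were recovered by inverting the transformation from the value that genes without reads share (6.59 and 7.63). For the miR29 mice 87.2 to 89.9% of low values then came within 0.05 reads of a whole number. In the Dnmt3a table they are approximate, because an additive effect between 2 sets of 4 libraries had been removed before deposit (gene means equal within 5.5e-09), so a term for the set was fitted. Its header repeats replicate names, so its libraries are numbered by column.

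Genes entered the test if their mean exceeded the table's minimum by 1 or more (about 48.0 and 80.1 normalised counts), with limma 3.58.1 in R 4.3.3 (empirical Bayes with a mean-variance trend), which was also tested on simulated data. Python 3.11.15 was used elsewhere. Same-numbered miR29 libraries deviated together (r = 0.335, 0.204 and 0.186 over genes). Between different numbers r ran from -0.327 to 0.178, the highest for miR29Nestin replicate 3 with miR29WT replicate 2. The last value is close to 0.186, so the pairing is uncertain, and the labels name no source of it. The block by replicate number was therefore run as an alternative. The members and lists were chosen with earlier results of these data known. Beyond the members, the rule named up to 4 called genes per pathway list, and Pvalb plus up to 2 called genes per marker list, by smallest p; 2 genes it named are not reported here. Alternatives were other filters, scales, centring, variance priors, terms for sex (read from Y-linked genes), set or block, and leaving out each library. By those genes miR29Nestin replicate 1 and miR29WT replicates 1 and 3 were male and the other miR29 libraries were not, so sex was not balanced between these groups.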

Additional observations from a re-analysis of the deposited data

Results flagged for a closer look

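In groups of 4 libraries, 94 gene and group combinations were checked for a library set apart from the rest by Dixon's criterion, which chance alone meets in about 1 of 20. Of these, 2 met it, both in Dnmt3a-WT mice. Ppargc1b was lowest in library 3, at 8.79 on the log2 scale (135 normalised counts), with the others at 8.81 to 8.82. That group is narrow as a whole, and without library 3 the Ppargc1b difference was 0.05 in place of 0.06. Ppard was lowest in library 2, at 9.15 (242 normalised counts), with the others at 9.29 to 9.32.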

How the results depend on the processing

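Of the 9 genes none was called in the Dnmt3a comparison under any alternative in which it was tested. The stricter filter left only Ppargc1a, Esrra and Vdac1 to test there. In the miR29 comparison it left Ppargc1b, Nrf1 and Gabpa untested. In the miR29 comparison the count of called genes among the 9 was 0 as reported, 2 with the replicate block (Esrra and Nrf1), and 1 each with a robust variance prior, a stricter filter and a term for sex (Esrra in each), and 0 to 1 when libraries were left out. The block also brought Vdac2 and Syt2 past the threshold and changed no other call among the named genes. The term for sex brought the same 2 genes past it (adjusted p = 0.0295 and 0.0404, limma) and ended the call of Mfn1 (adjusted p = 0.0670, limma). Without the mean-variance trend Tfb2m passed, and the calls of Lonp1, Mfn1 and Atp5b were lost (adjusted p = 0.0518, 0.0523 and 0.09065, limma). Centring the library medians also ended the call of Atp5b (adjusted p = 0.0508, limma). No paired analysis was possible because the Dnmt3a table repeats its replicate names, so for that model the block was not run. Over all genes, 2289 were called in the miR29 comparison, 848 with no filter and 1384 (without miR29WT replicate 2) to 2313 when libraries were left out. Pathway genes called numbered 16, 7 with no filter and 9 (without miR29WT replicate 2) to 21 when libraries were left out. In the Dnmt3a comparison 13 genes were called, 2 with no filter, 85 with no set term and 1 to 82 when libraries were left out, the last without Dnmt3a-WT replicate 2. Members with a match to bases 2 to 8 fell from 2 to 0 when the annotated 3′ UTR with the fewest sites was used. The cause of these shifts was not tested.

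Differences near 0 changed sign when single libraries were left out. In the miR29 comparison the log2 differences then ranged from -0.0851 to 0.0846 for Ppargc1a (-0.0159 with a term for sex), from -0.134 to 0.0051 for Ppargc1b, from -0.0906 to 0.068 for Gabpa, from -0.0445 to 0.0296 for Tfam, from -0.0187 to 0.0853 for Vdac3, from -0.0251 to 0.0664 for Gabpb1, from -0.0871 to 0.0074 for Tfb1m, from -0.0091 to 0.131 for Cycs and from -0.109 to 0.0522 for Prkaa1. In the Dnmt3a comparison they ranged from -0.0892 to 0.0177 for Esrrg, from -0.0322 to 0.0018 for Gabpa, from -0.0049 to 0.0355 for Tfam, from -0.0087 to 0.066 for Lrpprc, from -0.0188 to 0.0278 for Gabpb1, from -0.0069 to 0.0491 for Gabpb2 and from -0.0376 to 0.0065 for Sdhc. On the log2(normalised count + 1) scale low genes differed more (Nrf1 -0.35 in the miR29 model, Pprc1 0.28 in the Dnmt3a model) with the same calls. Counts per kilobase of the median coding transcript, which for several of these genes is a short fragment, changed the order of levels.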
